A study of Mus musculus with 9 samples.

Results

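Plasminogen activation is the switch that turns plasminogen, a circulating zymogen, into plasmin, a protease that cuts fibrin and other matrix proteins and frees growth factors held in the matrix. Cells govern the switch at their surface: urokinase (gene Plau) and tissue-type plasminogen activator (gene Plat) do the cutting, the urokinase receptor (gene Plaur) holds urokinase at the membrane, and serpins, inhibitors that trap a protease in a covalent complex, shut it off. In fibroblast-like cells the system serves pericellular proteolysis and migration. The 5 genes described here, Plau, Plat, Plaur, Serpine2 and Serpinf1, were chosen by name out of 49315 gene identifiers, and all 5 were among the 18211 genes that passed the filter on low counts. They are not the whole system. Serpine2 encodes protease nexin-1, which inhibits urokinase, tissue-type activator, plasmin and thrombin. Serpinf1 encodes pigment epithelium-derived factor, a secreted anti-angiogenic protein with the serpin fold that is not known to inhibit proteases, so of the listed serpins Serpine2 alone is an inhibitor of the system.

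The cells were pancreatic stellate cells of C57BL6 mice that had become immortal by spontaneous outgrowth. All carried lentiviral Cas9 and a guide RNA, were selected with puromycin and were used as uncloned pools, and the share of edited cells is not stated. The group R26 normoxia had the control guide R26 sg1 and 20% oxygen for 48 h. R26 hypoxia had the same guide and 0.5% oxygen for 48 h, and HIF1a-ko hypoxia had the guide HIF1a sg2 and 0.5% oxygen for 48 h. There were 3 libraries in each group. None of the 9 libraries is of HIF1a-ko cells at 20% oxygen. A difference between the guide pools already present at 20% oxygen therefore cannot be told apart from a different response to low oxygen. The p-values measure only the spread between libraries, which may be technical.

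Library totals ran from 43837809 to 107840223 counts, and HIF1a-ko hypoxia 1, R26 hypoxia 3 and R26 normoxia 3 were each the deepest of their group. Poly-A RNA was counted per gene, and whether replicates are separate cultures is not stated in the labels. Hif1a, the targeted gene, was at 192.4 to 224.8 CPM (counts scaled to one library size with the TMM factors of edgeR) in R26 normoxia, 168.7 to 207.1 CPM in R26 hypoxia and 116.9 to 125 CPM in HIF1a-ko hypoxia. A guide changes the gene and can leave its transcript in place, so this level does not measure the protein. All 12 fibroblast and stellate markers had counts in every library, and 9 to 11 of them reached 1 CPM. Their summed level was 17550 to 19260 CPM in R26 normoxia, 19780 to 21320 CPM in R26 hypoxia and 13480 to 13940 CPM in HIF1a-ko hypoxia. Col1a1, Col1a2 and Vim made up much of it, with means of 5070.5, 5504 and 3873.8 CPM in R26 normoxia. Gfap, Des and Lum had only 0.339, 1.82 and 2.97 CPM there. From R26 hypoxia to HIF1a-ko hypoxia the means of Col1a1 (6105.4 to 3772.4 CPM), Col1a2 (6637 to 3517 CPM) and Col3a1 (785.25 to 498.8 CPM) fell. Pdgfra (687.4 to 212.0 CPM) and Vim (4163.5 to 3434.7 CPM) fell too, and Pdgfrb, Dcn and Lum also had lower means. The means of Acta2 (786.5 to 1142.6 CPM), Thy1 (382.4 to 400.2 CPM), Des and Gfap did not fall. Acta2 stood at 1520.5 CPM in R26 normoxia. Markers of other cell types summed to far less: 8.63 to 47.4 CPM for 8 leukocyte markers, 7.41 to 21.3 CPM for 6 endothelial markers, 14.2 to 106.6 CPM for 6 epithelial markers and 4.24 to 14.2 CPM for 8 acinar and islet markers. The insulin genes Ins1 and Ins2 and the amylase gene Amy2a5 were at 0 in all 9 libraries. The leukocyte, epithelial and endothelial sums were lowest in the deepest library of each group. In bulk RNA, fewer cells of a type and less RNA per cell cannot be told apart.

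Plaur and Serpinf1 were the members that rose in R26 hypoxia, so the sequence around their start sites is shown here. Promoter windows of 250 bases before to 50 bases after a RefSeq start site (build GRCm38.p6) were matched by symbol for 3 of the 5 genes, Plaur, Serpine2 and Serpinf1. Each window was searched on both strands for ACGTG and GCGTG, the core letters of the hypoxia response element, and for TGAGTCA, a site of the AP-1 factors; the motifs do not contain one another. Capitals mark the matches.

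Plaur: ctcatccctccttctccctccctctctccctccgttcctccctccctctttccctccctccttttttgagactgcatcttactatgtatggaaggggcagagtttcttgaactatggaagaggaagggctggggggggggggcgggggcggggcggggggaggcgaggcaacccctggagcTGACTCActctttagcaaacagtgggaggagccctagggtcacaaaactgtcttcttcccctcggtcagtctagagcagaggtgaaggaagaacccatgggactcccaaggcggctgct

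Serpinf1: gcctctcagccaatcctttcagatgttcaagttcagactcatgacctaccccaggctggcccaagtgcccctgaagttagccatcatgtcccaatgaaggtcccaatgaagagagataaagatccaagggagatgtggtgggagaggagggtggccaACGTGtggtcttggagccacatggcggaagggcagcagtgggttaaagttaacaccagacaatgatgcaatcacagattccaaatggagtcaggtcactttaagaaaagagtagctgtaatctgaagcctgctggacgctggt

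The Plaur window (chr7:24462233-24462532, plus strand) held 1 match, TGAGTCA on the opposite strand, at position -69 from the start site. The Serpinf1 window (chr11:75422574-75422873, minus strand) held 1 match, ACGTG on the gene's own strand, at position -93. Of 32851 windows of 300 bases, 5.2% held TGAGTCA, 19.6% held ACGTG and 32.4% held GCGTG. The Serpine2 window held none of these letters. A match describes the letters only and is not a measured binding site.

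With low oxygen in control cells, 3 of the 5 genes changed. With the replicate number as a block 4 of 5 did, where Plau passed too (log2 fold change 0.20, edgeR adjusted p = 0.00502). The labels state no pairing, and the likeness of same-numbered libraries cannot be told apart from depth class. Plaur rose 1.37-fold, Serpinf1 rose by 20.3%, and Plat fell by 11.8%, while Serpine2 did not pass in either fit and Plau did not without the block. The background was high: of 18211 genes tested with edgeR's quasi-likelihood test, 25.2% changed (12.8% higher and 12.4% lower, at an adjusted p under 0.05). That is 4591 genes, against 7259 with the replicate number as a block. The blocked fit used the 2 groups alone with its own filter on low counts, and its share of genes tested is not given here. The median log2 fold change of the 5 genes was 0.18, against -0.01 over all genes tested. Every change was below 1 on the log2 scale.

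With the Hif1a guide in low oxygen, 2 of the 5 genes differed from control cells in low oxygen, where 45.8% of all genes changed (22% higher and 23.8% lower). Plaur fell 1.73 times, to a level below that of normoxic control cells. Plat rose 1.22-fold. Against R26 normoxia, 3 of the 5 differed, with Plau and Serpinf1 higher and Plaur lower, where 41.4% of all genes changed (19.5% higher and 21.9% lower). The medians of the 5 genes were -0.02 and 0.11 on the log2 scale in these comparisons, against -0.02 and -0.01 over all genes. With only 5 genes, chosen with earlier results of these data known, the difference of their shares from the backgrounds was not tested. Each pair of comparisons shares 1 group of libraries, so a high or low value there enters both.

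**Figure D1:**
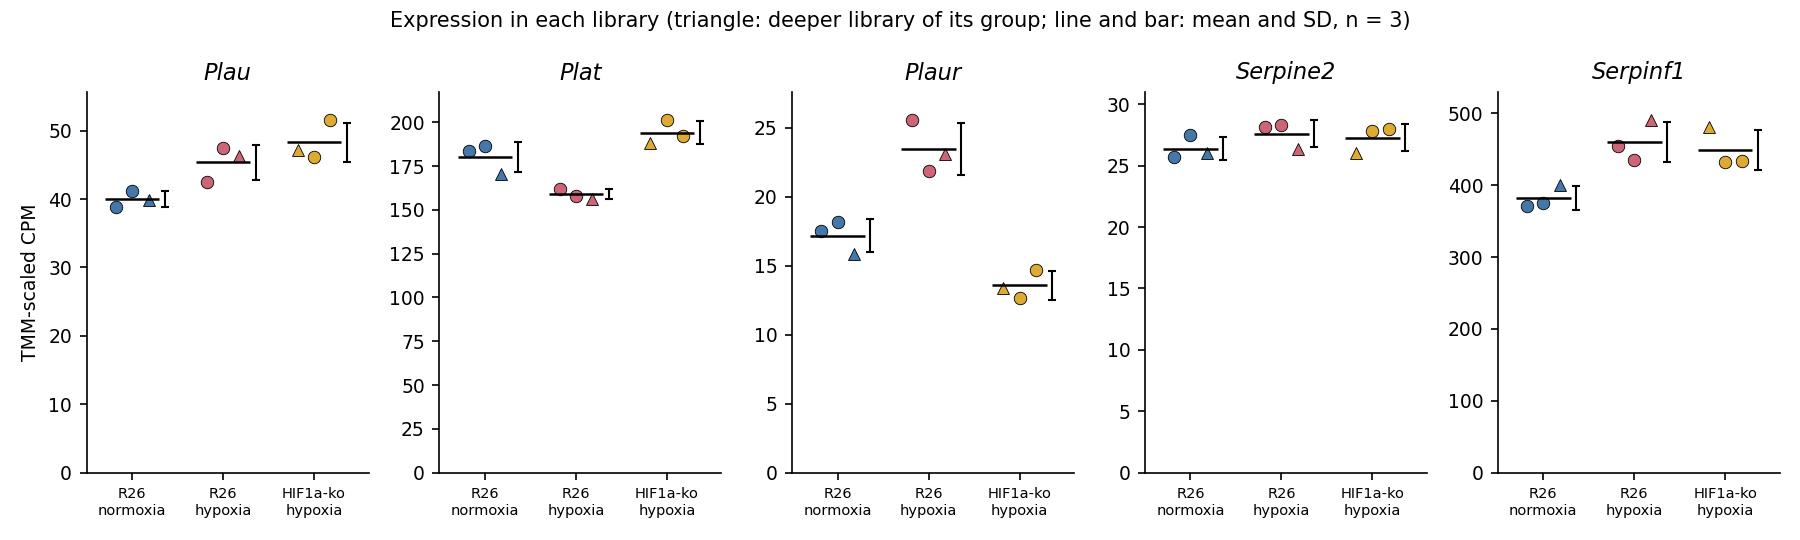
Expression of the 5 genes in each of the 9 libraries, in TMM-scaled CPM on axes that start at 0, with the mean (line) and SD (bar) of 3 libraries per group and a triangle for the deepest library of a group. Plaur falls into 3 groups that do not overlap, while the 9 Serpine2 values lie between 25.7 and 28.3 CPM.

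**Figure D2:**
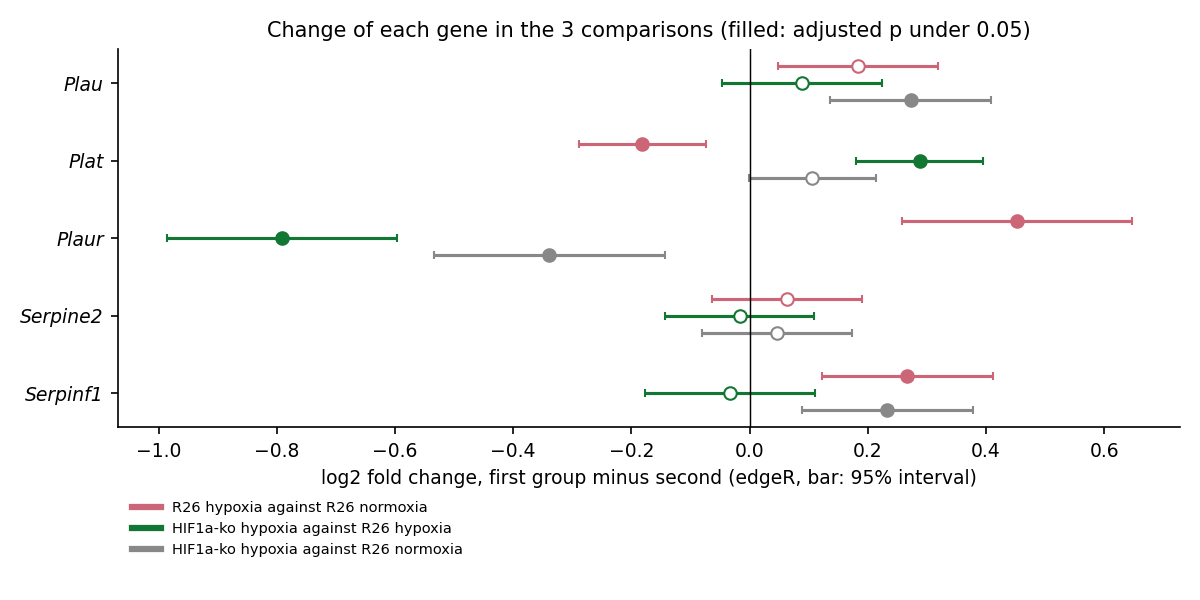
Log2 fold changes of the 5 genes in the 3 comparisons with 95% intervals of the edgeR fit; filled points have an adjusted p under 0.05. Plaur has the lowest and the highest value, -0.79 and 0.45.

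Plau (ENSMUSG00000021822, chromosome 14, 20836660 to 20843385, plus strand, build GRCm38 as for all members), the urokinase gene, passed the test in 1 of the 3 comparisons. Libraries 1 to 3 of R26 normoxia gave 38.9, 41.1 and 39.9 CPM, those of R26 hypoxia 42.5, 47.4 and 46.2 CPM, and those of HIF1a-ko hypoxia 47.1, 46.2 and 51.5 CPM. All 6 hypoxic libraries lay above all 3 normoxic ones, and the hypoxic groups overlapped. The means were 40.0 ± 1.14 CPM in R26 normoxia, 45.4 ± 2.58 CPM with low oxygen and 48.3 ± 2.84 CPM with the Hif1a guide (SD, n = 3). Between R26 hypoxia and R26 normoxia the log2 fold change was 0.18 ± 0.06 (SE; edgeR adjusted p = 0.0529), which missed the threshold. With the replicate number of the labels as a block it passed (log2 fold change 0.20, adjusted p = 0.00502), and it passed under 8 of 19 alternatives, among them leaving out R26 hypoxia 1 (0.23, adjusted p = 0.0289) or HIF1a-ko hypoxia 3 (0.20, adjusted p = 0.0342). HIF1a-ko hypoxia was higher than R26 normoxia by 0.27 ± 0.06 (adjusted p = 0.00537). With against without the Hif1a guide in low oxygen, the log2 difference was 0.09, with a 95% interval from -0.05 to 0.22 (adjusted p = 0.268).

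Plat (ENSMUSG00000031538, chromosome 8, 22757727 to 22782844, plus strand), the tissue-type activator gene, fell with low oxygen and rose with the Hif1a guide. The 3 libraries of R26 normoxia had 183, 187 and 171 CPM, in order of replicate. Those of R26 hypoxia were 162, 158 and 156 CPM, and with the Hif1a guide 188, 201 and 192 CPM. The 3 hypoxic control libraries were the lowest of the 9, and the 3 groups did not overlap. Within each of the 3 groups the deepest library had the lowest value. With the 6 shallower libraries alone the log2 fold change with low oxygen was -0.19 (edgeR adjusted p = 0.00873). The means were 180.2 ± 8.45, 158.9 ± 2.90 and 194 ± 6.52 CPM. Plat fell by 0.18 ± 0.05 on the log2 scale in R26 hypoxia (edgeR adjusted p = 0.0214). That call was lost without R26 normoxia 1 (adjusted p = 0.0792), R26 normoxia 2 (0.0882), R26 hypoxia 2 (0.0659) or R26 hypoxia 3 (0.0547), with no filter on low counts (0.0704) and in a fit of the 2 groups alone (0.0655). With the Hif1a guide Plat rose by 0.29 ± 0.05 against R26 hypoxia (adjusted p = 0.000851), a call kept in all 19 alternatives. Against R26 normoxia the difference was 0.11 ± 0.05 (adjusted p = 0.106), and it was called with library totals only (0.15, adjusted p = 0.0205) and with depth class as a term (0.11, adjusted p = 0.0327). Endothelial cells also make tissue-type activator. The 6 endothelial markers summed to 9.96 to 16.8 CPM in R26 normoxia, 7.41 to 15.9 CPM in R26 hypoxia and 11.9 to 21.3 CPM in HIF1a-ko hypoxia, and their part in the Plat values was not tested.

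Plaur (ENSMUSG00000046223, chromosome 7, 24462484 to 24475968, plus strand), the urokinase receptor gene, changed most. Its values in R26 normoxia were 17.5, 18.2 and 15.9 CPM, in order of replicate. Those of R26 hypoxia were 25.5, 21.8 and 23.1 CPM, and with the Hif1a guide 13.4, 12.7 and 14.7 CPM. The order of the groups was R26 hypoxia, R26 normoxia, HIF1a-ko hypoxia, with no overlap between neighbours. The means were 17.2 ± 1.18, 23.5 ± 1.89 and 13.6 ± 1.02 CPM. Plaur rose by 0.45 ± 0.09 on the log2 scale with low oxygen (edgeR adjusted p = 0.00464) and fell by 0.79 ± 0.09 with the Hif1a guide in low oxygen (adjusted p = 6e-05). Both calls held in all 19 alternatives. Against R26 normoxia, HIF1a-ko hypoxia was lower by a log2 fold change of -0.34 ± 0.09 (adjusted p = 0.0113), a call kept with each library left out. Leukocytes also carry the receptor. The 8 leukocyte markers summed to 12.9 to 31.3 CPM in R26 normoxia, 8.63 to 47.4 CPM in R26 hypoxia and 17.3 to 34.2 CPM in HIF1a-ko hypoxia, and their part in the Plaur values was not tested.

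Serpine2 (ENSMUSG00000026249, chromosome 1, 79794197 to 79861180, minus strand), the protease nexin-1 gene, passed no test. In R26 normoxia its values were 25.7, 27.5 and 26.01 CPM, in order of replicate. Those of R26 hypoxia were 28.1, 28.3 and 26.3 CPM, and with the Hif1a guide 26.02, 27.8 and 28.0 CPM. All 3 groups overlapped. The means were 26.4 ± 0.931, 27.6 ± 1.11 and 27.3 ± 1.09 CPM. The log2 difference between R26 hypoxia and R26 normoxia was 0.06 with a 95% interval from -0.06 to 0.19 (edgeR adjusted p = 0.482). That between HIF1a-ko and R26 cells in hypoxia was -0.02 with an interval from -0.14 to 0.11 (adjusted p = 0.838), and its sign turned with library totals only (0.05) and without R26 hypoxia 2 (0.0003) or HIF1a-ko hypoxia 1 (0.02). The intervals leave room for changes of up to about 0.19 on the log2 scale.

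Serpinf1 (ENSMUSG00000000753, chromosome 11, 75409769 to 75422701, minus strand), the gene of pigment epithelium-derived factor, had the highest levels of the members. R26 normoxia gave 371, 375 and 401 CPM in libraries 1 to 3, R26 hypoxia 454, 435 and 490.2 CPM, and HIF1a-ko hypoxia 481, 432 and 434 CPM. Every hypoxic library, with either guide, lay above every normoxic one, and the hypoxic groups overlapped. The deepest library was the highest of its group in all 3 groups, and with the 6 shallower libraries alone the log2 fold change with low oxygen was 0.27 (edgeR adjusted p = 0.000799). The means were 382 ± 16.2, 459.8 ± 28.1 and 449 ± 27.8 CPM. Serpinf1 rose by 0.27 ± 0.06 on the log2 scale in R26 hypoxia (edgeR adjusted p = 0.0144), a call lost without R26 normoxia 1 (0.24, adjusted p = 0.0598) or R26 normoxia 2 (0.25, adjusted p = 0.0553). HIF1a-ko hypoxia was higher than R26 normoxia by 0.23 ± 0.06 (adjusted p = 0.016), a call lost without R26 normoxia 1 (0.21, adjusted p = 0.0637) or 2 (0.22, adjusted p = 0.056). Between the guides in hypoxia the log2 difference was -0.03, with a 95% interval from -0.18 to 0.11 (adjusted p = 0.717), and its sign turned with library totals only (0.03) and without R26 hypoxia 3 (0.01) or HIF1a-ko hypoxia 3 (0.008).

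For the 3 genes that changed with low oxygen in control cells, the group means in CPM place HIF1a-ko hypoxia beside both control groups. The difference of HIF1a-ko hypoxia from normoxia, given in percent of the control cells' difference, was 86.4% for Serpinf1, -57.2% for Plaur and -64.6% for Plat. A value below 0% means that the HIF1a-ko mean lay beyond the normoxic mean on the other side from the hypoxic one. These percentages have no test of their own, and for Plat the difference from normoxia did not pass the test.

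Levels of different genes were compared per kilobase of exon (RPKM). In every library the order was Serpinf1, Plat, Plau, Plaur, Serpine2, and no neighbours in that order overlapped within a group. In R26 normoxia the levels were 157.1 to 169.9 RPKM for Serpinf1, 27.3 to 29.9 RPKM for Plat, 16.4 to 17.4 RPKM for Plau, 6.06 to 6.94 RPKM for Plaur and 3.10 to 3.31 RPKM for Serpine2. Serpinf1 ranked 195 of 18211 genes in R26 normoxia and 163 in both hypoxic groups, while Serpine2 ranked 9002, 8901 and 8971. The length used is the union of all annotated exons, 8287 bases for Serpine2 against 2359 bases for Serpinf1, so a gene with many annotated transcript forms can appear lower than it is.

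**Figure D3:**
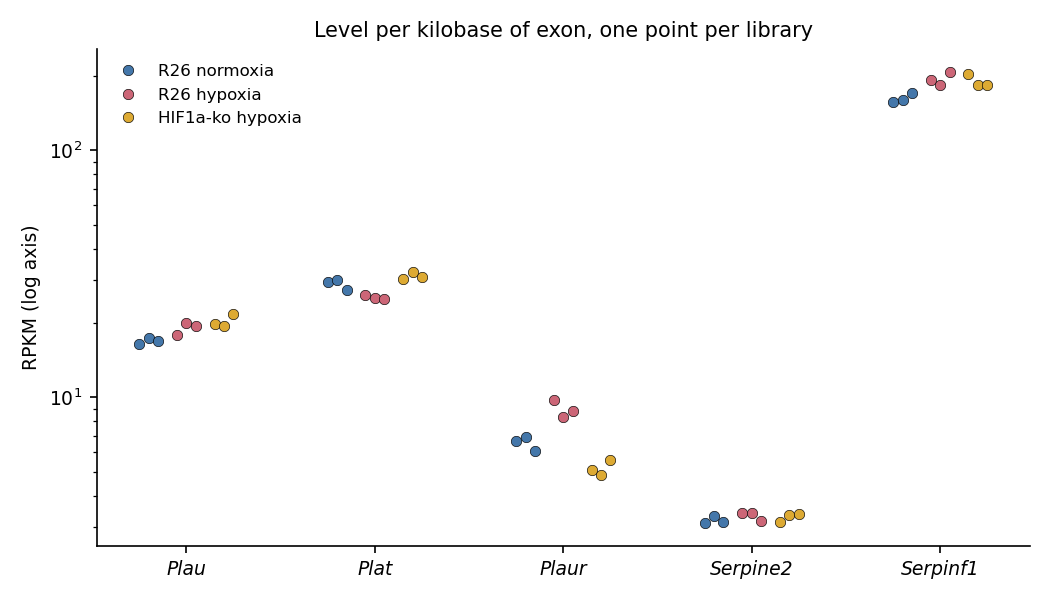
Level of each of the 5 genes per kilobase of exon in RPKM on a log axis, 1 point per library, coloured by group. Serpinf1 lies between 157.1 and 207.8 RPKM and Serpine2 between 3.10 and 3.42 RPKM.

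The balance between members shifted within libraries, a measure that does not depend on how libraries are scaled. Per length, Plau stood to Plat at a ratio of 0.559 to 0.617 in R26 normoxia, 0.691 to 0.791 in R26 hypoxia and 0.606 to 0.706 in HIF1a-ko hypoxia. The normoxic and hypoxic control libraries did not overlap in this ratio, and the HIF1a-ko libraries overlapped both. The tissue-type activator transcript was thus the more abundant of the activators per length in all 9 libraries. The ratio of Plau to Plaur was 2.46 to 2.78 in R26 normoxia, 1.84 to 2.40 in R26 hypoxia and 3.88 to 4.03 in HIF1a-ko hypoxia, with no overlap. Serpine2 stood at 0.0677 to 0.071 of the summed activators in R26 normoxia, 0.0712 to 0.0773 in R26 hypoxia and 0.0627 to 0.0648 in HIF1a-ko hypoxia. These ratios are descriptions, with no test.

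Among the members, the log2 CPM of Plat and Plaur ran opposite over the 9 libraries (Pearson r = -0.88), and Plau ran with Serpinf1 (r = 0.67). Of 9678 tested genes of at least 3 on the average log2 CPM scale, the 3 most like Plaur were Inppl1, a lipid phosphatase (r = 0.99), Crebzf (0.99) and Chst1, a sulfotransferase (0.99). Those most like Plat were U2af2, a splicing factor (0.99), Mrpl16, a mitochondrial ribosomal protein (0.98) and Atp6v1d, a proton pump subunit (0.98). Osbpl3, Dym and Prrg1 were most like Serpinf1 (each 0.98), and Exoc3, Zfp608 and Ryk most like Plau (0.95, 0.95 and 0.94). For Serpine2 the highest values were lower, 0.89 for Ppp1r15a and for Ctsh and 0.87 for Ctsc. These r values describe 9 libraries that share 3 groups and 2 depth classes, and they are the highest of those 9678 genes.

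Around the members, 69 other genes of the system and its neighbours were listed, of which 62 were tested. In R26 hypoxia 18 of them were higher and 7 lower than in R26 normoxia (40.3% called, against 25.2% of all genes; median log2 fold change 0.15). With the Hif1a guide in hypoxia 12 were higher and 25 lower than in R26 hypoxia (59.7% against 45.8% of all genes, median -0.26). In HIF1a-ko hypoxia 9 were higher and 18 lower than in R26 normoxia (43.5%, near the 41.4% of all genes, median -0.001). These shares were not compared by a test, and the lists were chosen with earlier results of these data known, which can raise them. Plg, plasminogen itself, had no count in 7 libraries, 1 count in R26 normoxia 3 and 8 counts in R26 hypoxia 2, and was not tested. A count of 0 allows up to 3 counts, which is 0.0338 CPM or less in the deeper libraries and up to 0.0697 CPM in the others. Vtn, vitronectin, a matrix ligand of the receptor, had 1 to 9 counts.

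**Figure D4:**
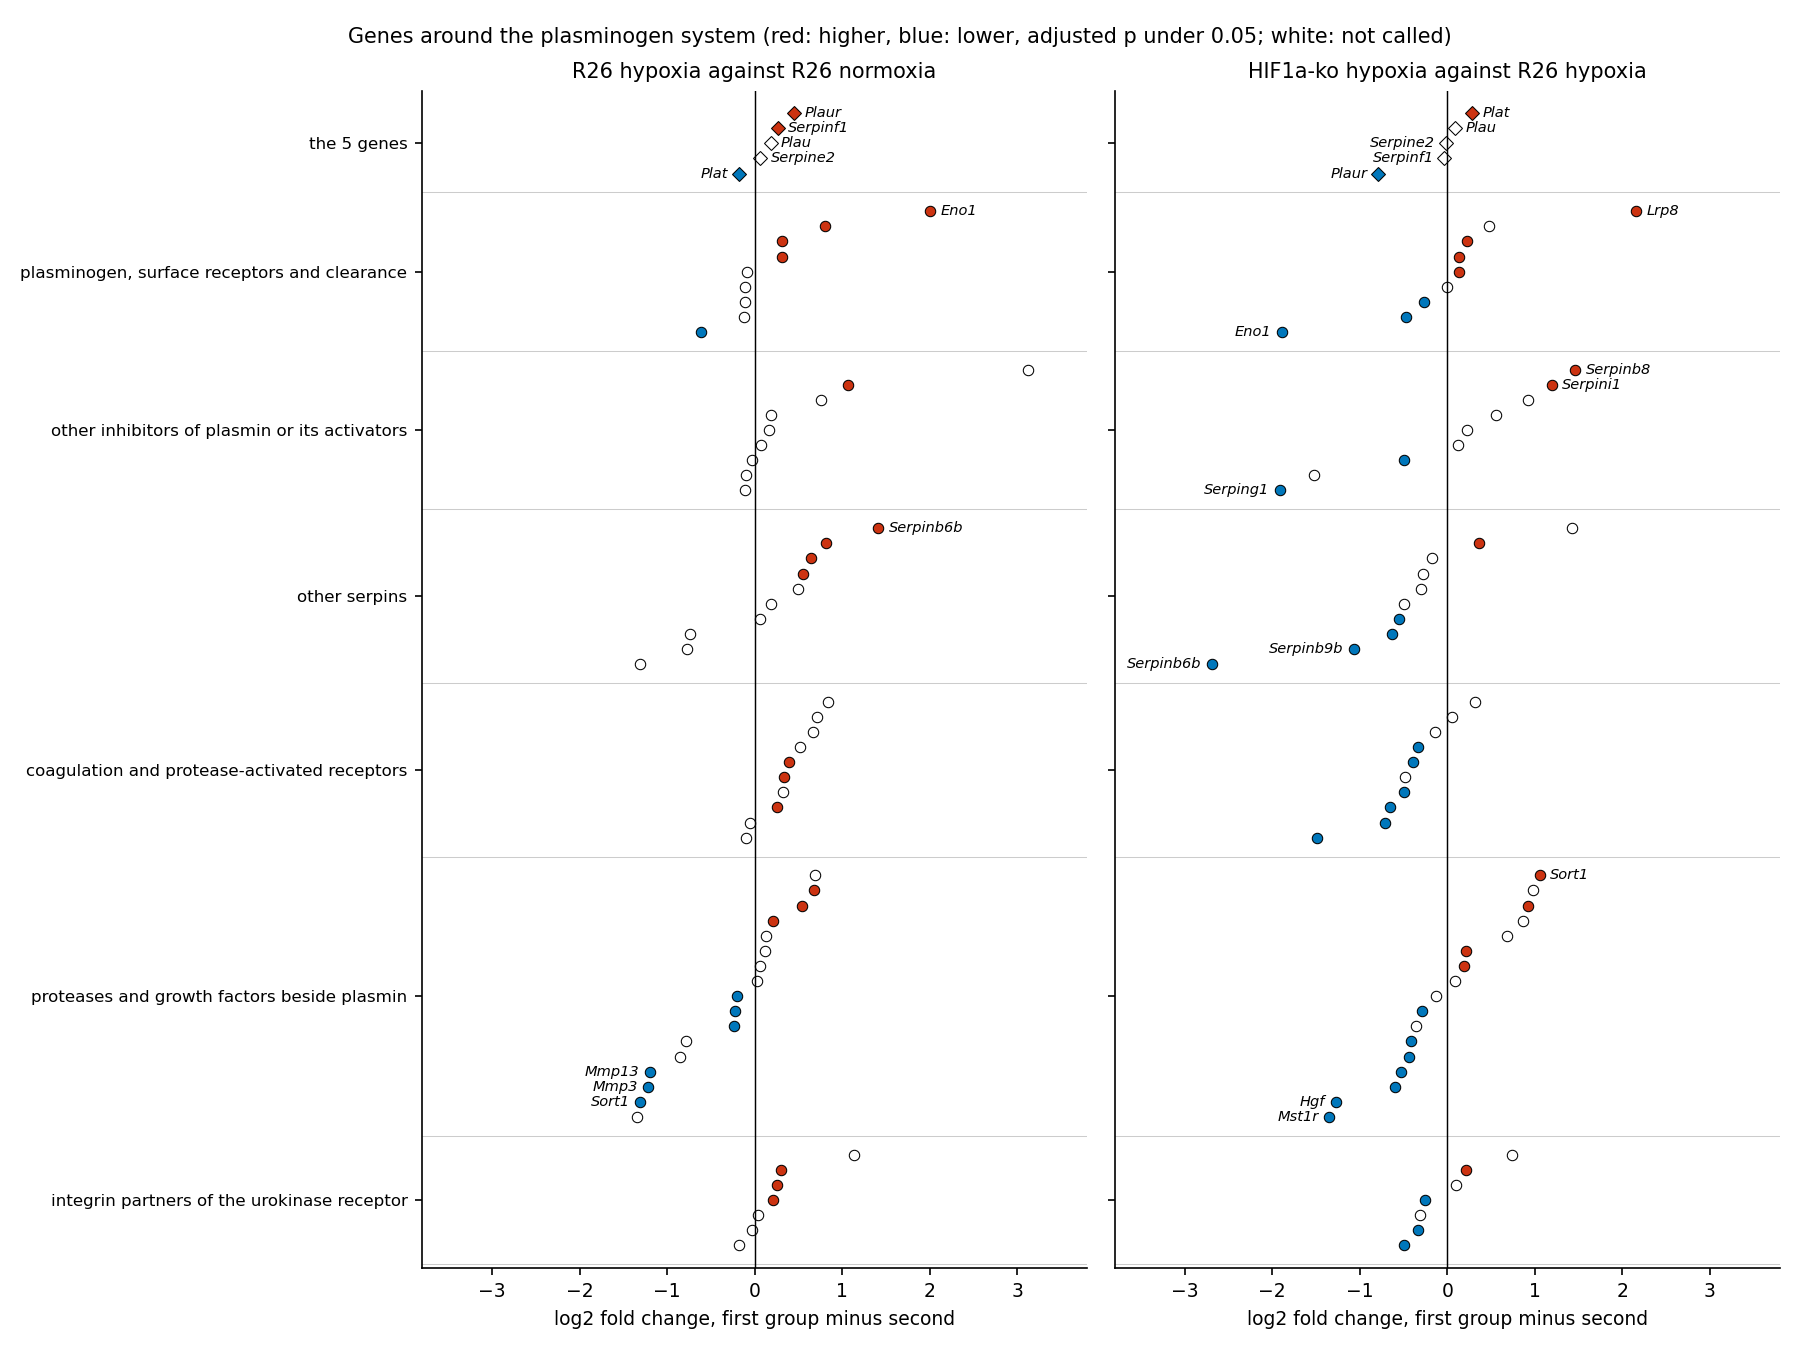
Log2 fold changes of the 5 genes (diamonds) and of 62 other tested genes of the system (circles), for low oxygen in control cells (left) and for the Hif1a guide in low oxygen (right), with colour for an adjusted p under 0.05. Named circles passed the test at an absolute log2 fold change of at least 1 and at 10 CPM or more in a group; Eno1 and Serpinb6b lie to the right on the left side and to the left on the right side.

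Of 9 tested plasminogen receptors and clearance receptors, 4 rose and 1 fell with low oxygen (median -0.09), and 4 rose and 3 fell with the Hif1a guide in low oxygen (median 0.14). The counts of this and the following lists stand beside 12.8% of all genes higher and 12.4% lower with low oxygen, and 22% higher and 23.8% lower with the guide. Eno1, a glycolytic enolase that also binds plasminogen at the cell surface, rose from 588 ± 9.07 to 2365.5 ± 121.8 CPM and fell to 637 ± 34.2 CPM with the guide. Eno1 shares 26% of its 50-base stretches with other genes, mostly Eno1b, so its count is uncertain. Lrp1, which takes up activator-inhibitor complexes, rose by 0.31 on the log2 scale and fell by 0.47 with the guide. Vldlr, a related uptake receptor, rose by 0.80 with low oxygen and was higher still with the guide, at 257.9 CPM against 126.4 CPM in R26 normoxia (log2 fold change 1.03). Lrp8 fell by 0.61 with low oxygen and rose from 4.72 to 21.1 CPM with the guide, above R26 normoxia by a log2 fold change of 1.55. Anxa2, a co-receptor for plasminogen and tissue-type activator, stood at 738.1 to 748.5 CPM in R26 normoxia, 673.5 to 710 CPM in R26 hypoxia and 750.5 to 762.6 CPM in HIF1a-ko hypoxia. Its difference between the hypoxic groups (log2 fold change 0.14, edgeR adjusted p = 0.0182) was lost under 5 of 19 alternatives. In the same comparison the calls of Mrc2 (log2 fold change 0.14) and Plgrkt (-0.27) were lost under 9 and 7 of 19.

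Of 9 other tested genes listed as inhibitors of plasmin or its activators, 1 rose and none fell with low oxygen (median 0.16). With the guide in low oxygen 2 rose and 2 fell (median 0.23). The riser in low oxygen, Serpinb2, the second plasminogen activator inhibitor, stood at only 0.201 CPM in R26 normoxia and 0.434 CPM in R26 hypoxia, and its call was lost under 9 of 18 alternatives (at least 1 CPM in 3 libraries left it out). Serpini1, neuroserpin, an inhibitor of tissue-type activator, rose with the guide from 4.45 ± 0.618 to 10.2 ± 0.590 CPM. Serpinb8, a listed serpin whose action on plasmin or its activators was not tested here, rose from 18.05 ± 0.754 to 49.8 ± 0.469 CPM. Serping1, the C1 inhibitor, fell from 17.9 ± 1.69 to 4.79 ± 2.13 CPM, and Serpinb6a, an intracellular serpin, fell by 0.50 on the log2 scale, though it shares 25.1% of its 50-base stretches with other genes, most with Nqo2. HIF1a-ko hypoxia also stood apart from R26 normoxia in Serpinb8 (log2 fold change 1.63), Serpini1 (1.17) and Serping1 (-1.16).

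Of 10 other tested serpins, 4 rose and none fell with low oxygen (median 0.34), and 1 rose and 4 fell with the guide in low oxygen (median -0.40). The 4 were Serpinb6b, Serpinb9b, Serpinb9 and Serpinb1a, all intracellular serpins of clade B, and the same R26 hypoxia libraries stand in both comparisons. Serpinb6b rose from 13.7 ± 1.24 to 36.5 ± 2.81 CPM and fell to 5.69 ± 0.357 CPM, below R26 normoxia by a log2 fold change of -1.27. The low oxygen values were 0.82 for Serpinb9b, 0.65 for Serpinb9 and 0.56 for Serpinb1a, and the guide values were -1.06, -0.55 and -0.64. Serpinh1, the collagen chaperone HSP47, rose with the guide by 0.37. Serpina3n was lower in HIF1a-ko hypoxia than in R26 normoxia (16.5 against 33.7 CPM, edgeR adjusted p = 0.0433), a call lost under 9 of 19 alternatives.

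Of 10 tested genes of coagulation and its protease-activated receptors, 3 rose and none fell with low oxygen (median 0.37), and 6 fell and none rose with the guide in low oxygen (median -0.44). Of all genes, 12.8% rose with low oxygen and 23.8% fell with the guide. F3, tissue factor, which starts coagulation, was at 205.4 to 221.6 CPM in R26 normoxia, 257.5 to 282.9 CPM in R26 hypoxia and 205.6 to 222.6 CPM in HIF1a-ko hypoxia. Its inhibitor Tfpi rose by 0.40 and fell by 0.49 on the log2 scale, and Thbd, thrombomodulin, rose by 0.26 and fell by 0.65. F2r, the thrombin receptor PAR1, stood at 823.1 to 866.8 CPM in R26 normoxia and 746.5 to 825.5 CPM in R26 hypoxia, and fell to 467.1 to 499.7 CPM with the guide. Procr, also among those that fell with the guide (log2 fold change -0.39), lost its call under 4 of 19 alternatives. The tested genes F2rl3, F7 and F10 had group means of 1.03 CPM or less, and they enter the medians.

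Of 17 tested proteases and growth factors that act beside plasmin, 3 rose and 6 fell with low oxygen (median -0.20), and 4 rose and 7 fell with the guide in low oxygen (median -0.12). Hgf, a growth factor precursor that urokinase and related proteases can activate, rose by 0.54 with low oxygen and fell by 1.28 with the guide, from 55.1 ± 6.34 to 22.8 ± 1.57 CPM. Mst1r, the receptor of a related factor, fell with the guide from 35.4 to 13.9 CPM, below R26 normoxia by a log2 fold change of -1.22. The stromelysin gene Mmp3, whose product is released as a proenzyme that plasmin can activate, fell from 81.5 ± 7.39 to 35.0 ± 4.12 CPM with low oxygen and stood at 37.2 ± 2.02 CPM with the guide (log2 fold change -1.13 against R26 normoxia). The collagenase gene Mmp13 fell from 11.9 to 5.18 CPM with low oxygen and rose to 9.79 CPM with the guide. Sort1, a sorting receptor for neurotrophin precursors, fell from 31.6 to 12.8 CPM and rose to 26.6 CPM with the guide. Of 7 integrin subunits that pair with the urokinase receptor, 3 rose with low oxygen (median 0.22), and 1 rose and 3 fell with the guide (median -0.26). Itga3, Itga5 and Itgav stood at log2 fold changes of 0.31, 0.22 and 0.26 with low oxygen and -0.33, -0.26 and -0.49 with the guide. The low oxygen calls of Itga5 and Itgav were lost without R26 normoxia 1 (adjusted p = 0.0597 and 0.0833) or R26 normoxia 2 (0.0553 and 0.0791), and that of Itgav also without R26 hypoxia 2 (0.0579) or 3 (0.0577).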

How the data were processed

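Poly-A RNA of mouse pancreatic stellate cells was sequenced in 9 libraries, 3 in each of 3 groups. The authors deposited whole-number read counts per Ensembl gene without normalization. The submitters' processing notes name build GRCm38 and the tools STAR, featureCounts, Trimmomatic, DESeq2 and bcl2fastq 2.17. For their settings, the annotation release, strand and reads with several matches, details are not given in the sources used. Without a known strand setting, reads of antisense genes cannot be told apart. No exon of the 5 genes overlaps another gene in GENCODE M21, and they share at most 0.303% of their 50-base stretches with other genes. Identifiers were paired with GENCODE M21 symbols (49056 of 49315).

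Counts were fitted with edgeR 4.0.16 in R 4.3.3 (estimateDisp, glmQLFit, glmQLFTest, two-sided, all 9 libraries, group as the only term), with TMM factors and filterByExpr, and p-values were adjusted by Benjamini-Hochberg over 18211 genes. A gene is called where its adjusted p is under 0.05. SE is the log2 fold change divided by the root of the F statistic, and 95% intervals use the degrees of freedom of the fit. On simulated counts of the same 18211 genes for R26 hypoxia against R26 normoxia, the test recovered 62.7% of genes changed 1.5-fold, 86.6% of those changed 2-fold and 95.5% of those changed 4-fold. Only 67, 67 and 66 genes were changed there, against 4591 called in the data, so recovery can differ. The members' changes in that comparison were below 1.5-fold, a size the simulation did not cover. Sequences of promoters are from RefSeq (GRCm38.p6). The planned protein comparison was not run. Alternatives used RLE factors, library totals, DESeq2 1.42.0, limma-voom (limma 3.58.1), other filters, 2 groups alone, a replicate block, depth class and each library left out.

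The members and lists were chosen with earlier results of these data known. Named genes outside the members were changed list members with 10 CPM or more in a group and an absolute log2 fold change of at least 1, up to 4 per list and comparison, and the 3 genes most correlated with each member. Hif1a was named as the targeted gene. To show limits of the list counts, Mrc2, Plgrkt, Procr, F2rl3, F7 and F10 were also named, with their values known. Lrp1, Vldlr and Lrp8 in low oxygen, Mmp13 with the guide, Anxa2, Plg, Vtn, Serpinb2, Serpinb6a, Serpinb9, Serpinb9b and Serpinb1a in low oxygen, Serpinh1, Hgf in low oxygen, F3, Tfpi, Thbd, F2r, Itga3, Itga5 and Itgav were named after their values were seen.

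The replicate numbers were checked as a pairing. Deviations of same-numbered libraries from their group means correlated at 0.48, 0.53 and 0.855 between the R26 groups, each above 0.1, the bar set for pairing, so the blocked values are given for these groups. The labels do not state a pairing. Libraries of different numbers correlated about as highly (0.587 for R26 hypoxia 1 with R26 normoxia 2, and 0.498 for R26 hypoxia 2 with R26 normoxia 1), and the deepest libraries of HIF1a-ko hypoxia and the R26 groups, which differ in number, at 0.828 and 0.837. The correlations thus follow depth class, and number and depth class cannot be told apart for library 3 of the R26 groups. The deepest library has number 3 in both R26 groups and number 1 in HIF1a-ko hypoxia. The correlations were -0.656, 0.574 and -0.651 between HIF1a-ko and R26 hypoxia, and -0.616, 0.587 and -0.667 between HIF1a-ko hypoxia and R26 normoxia, so no pairing was taken there.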

Additional observations from a re-analysis of the deposited data

How the results depend on the processing

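Of 19 alternatives each for 15 gene results of the members, the calls of Plaur with low oxygen and with the Hif1a guide, of Plat with the guide and of Plau against normoxia held in all. For R26 hypoxia against R26 normoxia, the count of changed genes was 4591, against 7259 with the replicate block and 6959 with depth class as a term. Plau was called there with RLE size factors (log2 fold change 0.187), DESeq2 (0.189), at least 1 CPM in 3 libraries (0.201), 2 groups alone (0.203), the replicate block (0.203) and depth class (0.184), and ranged from 0.153 to 0.229 with 1 library left out. Plat was not called with no filter (-0.165) or 2 groups alone (-0.161), and ranged from -0.206 to -0.155 with 1 library left out. Serpinf1 ranged from 0.219 to 0.316 there, and from 0.202 to 0.294 against normoxia with the Hif1a guide. In HIF1a-ko hypoxia against R26 normoxia, Plat was called with library totals only (0.155) and depth class (0.107), while the replicate block ended the calls of Plaur (-0.341) and Serpinf1 (0.231); these numbers pair no libraries, and the block changed no other call of the members. Between the guides in hypoxia the sign turned for Serpine2 with library totals only (0.0475) and for Serpinf1 (0.0313). With 1 library left out it turned for Serpine2 without R26 hypoxia 2 (0.00032) or HIF1a-ko hypoxia 1 (0.0244), within a range of -0.0534 to 0.0244. It turned for Serpinf1 without R26 hypoxia 3 (0.0126) or HIF1a-ko hypoxia 3 (0.00753), within -0.0775 to 0.0126. The cause of these changes was not tested. Counts of changed genes ranged from 3287 to 4373, 7195 to 8400 and 6309 to 7995 in the 3 comparisons with 1 library left out. Of 83 results of single genes outside the members that were refitted, no alternative reversed one. Their calls were lost in 87 single refits and kept in 1488. Plg, Vtn, F2rl3, F7, F10, the genes most correlated with a member, Lrp8 with low oxygen and Mmp13 with the guide were not refitted. Members had 669 to 51853 reads per library, and the parts of counting error and of other spread between libraries were not separated.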
